A study of Homo sapiens with 6 samples.

Results

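The 51 genes described here encode the proteins that mark replication origins, load and start the replicative helicase, synthesise DNA, join Okazaki fragments and hold the fork together. They were taken by symbol from the deposited table of counts, as the 6 origin recognition subunits, the licensing factors CDC6, CDT1 and GMNN, the GINS complex with its partners, the polymerase, clamp, single-strand binding and ligase genes, and a set of fork and chromatin assembly genes. The MCM genes of the helicase itself were left out of this list. The members are 51 of the 35474 genes in the table, and all 51 passed the filter on low counts that left 20776 genes for testing. A549, an established line of human lung adenocarcinoma cells, was grown as 3 cultures given a siRNA against BAP18 (siBAP18) and 3 given a non-targeting siRNA (siCtrl), and poly(A) RNA was sequenced 48 h after transfection. Which of the study's BAP18 siRNAs was used is not given in the sources used here, so the comparison holds for 1 knockdown condition in 1 cell line.

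Libraries held from 42094524 to 56548620 counts. The targeted gene BAP18, listed as C17orf49, was at 14.0, 16.1 and 15.1 CPM with siCtrl against 2.21, 2.35 and 2.66 CPM with siBAP18, and its groups did not overlap. The epithelial keratin gene KRT8 was at 9223 CPM or more in every library, while the endothelial gene VWF and the surfactant gene SFTPC, as well as CDKN2A, which A549 cells lack, had 7 counts or fewer in every library. Of the markers of other cell types, endothelial PECAM1 reached 0.846 CPM and was lower with siBAP18 (0.171 to 0.368 CPM, against 0.581 or more with siCtrl). CPM here stands for the count of a gene scaled to a common library total with the TMM method of edgeR, and values given for 3 libraries are in the order of replicates 1, 2 and 3.

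Replication is prepared in G1, when the origin recognition complex, CDC6 and CDT1 load inactive MCM rings on DNA, and geminin (GMNN) later blocks CDT1 so that no origin is licensed again. In S phase the kinase CDC7 with its activator DBF4 allows CDC45 and GINS to join MCM and form the active helicase. DNA polymerase alpha with its primase lays down primers, polymerase epsilon copies the leading strand and polymerase delta the lagging strand, both held by the PCNA clamp that the RFC complex loads. RPA coats single-stranded DNA, FEN1, DNA2 and the ligase LIG1 finish Okazaki fragments, and CLSPN, TIMELESS and TIPIN keep the helicase and polymerases together. Many of these genes are transcribed at the G1/S boundary under control of E2F factors, and proliferating cells hold more of their RNA than resting cells.

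Most members were lower in siBAP18 than in siCtrl cells. At an adjusted p under 0.05 from the quasi-likelihood test of edgeR, with p adjusted over all genes tested, 42 of the 51 members were lower in siBAP18 cells, against 25.1% of all genes, and 3 were higher, against 24.5% of all genes. Genes were called when the log2 fold change also lay beyond 1 in size. On that rule 13 members were called lower, where 3.74% of all genes were, and 0 were called higher, where 4.72% of all genes were. In 43 members the 3 siBAP18 libraries all lay below the 3 siCtrl libraries, a pattern seen in 29% of all genes, and in 3 members they all lay above, as in 27.6% of all genes. The median log2 fold change of the members was −0.71, beside 0.00102 for all genes tested, with a range from −2.94 for FAM111B to 0.44 for RNASEH2C. The fall was similar in each siBAP18 library. Relative to the siCtrl mean, the median member stood at −0.69, −0.70 and −0.78 on the log2 scale in siBAP18 replicates 1, 2 and 3, and between −0.0080 and 0.012 in the siCtrl libraries. Cultures with fewer cells in S phase and cultures with less of these RNAs in each cell cannot be told apart in bulk RNA, and the share of cells in each phase was not analysed here.

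**Figure D1:**
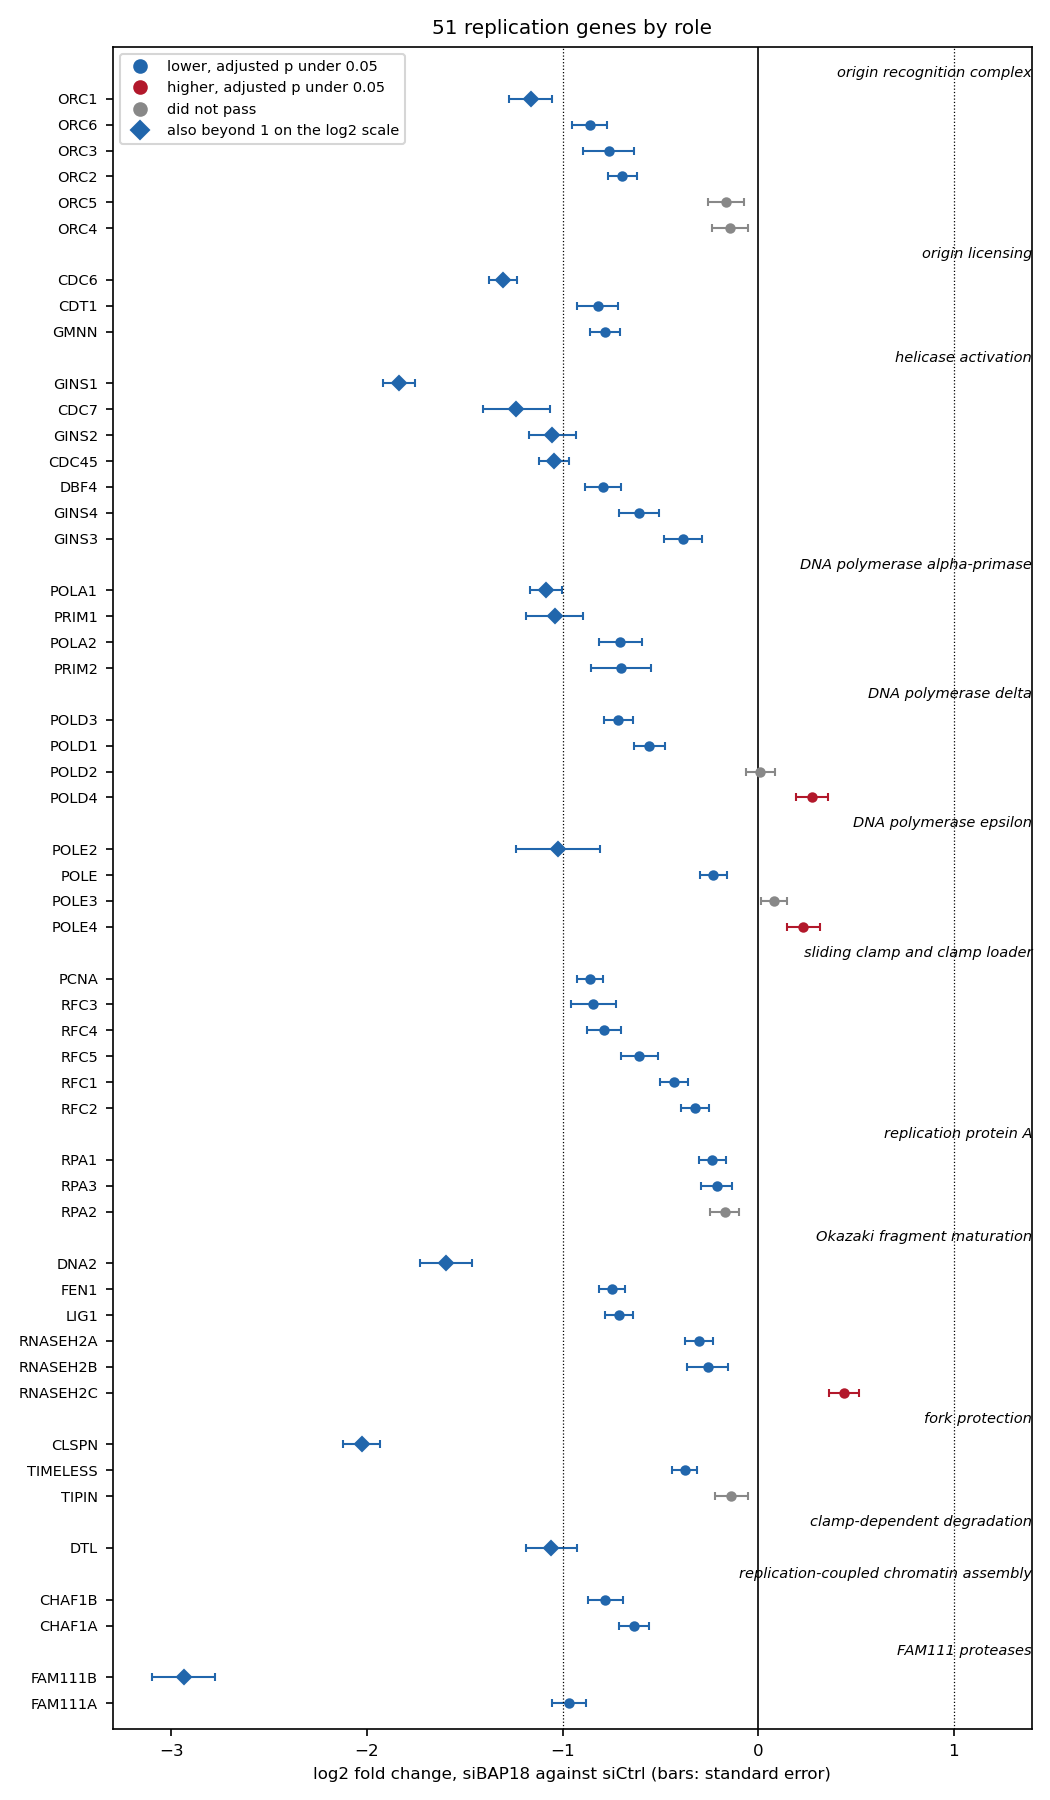
The log2 fold change of each of the 51 members (horizontal axis, siBAP18 against siCtrl, bars show the standard error) is drawn by role. Blue points lie to the left of 0 for 42 members, red points to the right for 3, grey points are the 6 that did not pass, and diamonds are the 13 called lower, led by FAM111B at −2.94 and CLSPN at −2.03.

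Promoters were compared because many members moved together. RefSeq promoters of GRCh38.p14, from 250 bases before to 50 bases after the annotated start, were matched by symbol for 45 of the 51 members (all but GINS4, POLD3, RPA2, RPA3, DNA2 and FAM111B). They were searched on both strands for the E2F words TTTCCCGC, TTTCGCGC, TTTGCCGC and TTTGGCGC, for the words TTTGAA and TTCGAA of the cell cycle homology region (CHR) found in many late cell cycle genes, and for the CCAAT box. An E2F word was present in 16 of 45 member promoters (35.6%) and in 1164 of all 35116 promoters (3.31%), which include genes not tested here. Among the genes tested that had a promoter entry, the share was 5.01%. CCAAT was present in 25 member promoters (55.6%) and in 34.6% of all promoters, while a CHR word was present in 1 member promoter (2.22%), that of DBF4, and in 16.4% of all promoters. For CCAAT and CHR the share among the genes tested was not counted, so members are set only against promoters that include genes not tested. Of the 13 members called lower, 7 had an E2F word, 4 had none, and 2, DNA2 and FAM111B, had no promoter entry. Windows of 40 bases are given here for the 7 with a word. Those of POLE and POLE4, which also hold a word but fell little or rose, are given as well. Each window reads 5′ to 3′ on the strand of the gene, with the E2F word, or its reverse complement, in capitals.
CLSPN: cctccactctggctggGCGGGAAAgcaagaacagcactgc
GINS1: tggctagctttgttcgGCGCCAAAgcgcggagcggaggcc
CDC6: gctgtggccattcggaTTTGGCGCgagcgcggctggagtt
DTL: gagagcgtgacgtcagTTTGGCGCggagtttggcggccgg
POLE2: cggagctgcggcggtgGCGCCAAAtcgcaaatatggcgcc
GINS2: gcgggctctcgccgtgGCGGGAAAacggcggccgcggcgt
POLA1: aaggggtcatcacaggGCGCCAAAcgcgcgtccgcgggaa
POLE: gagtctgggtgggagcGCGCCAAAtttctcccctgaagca
POLE4: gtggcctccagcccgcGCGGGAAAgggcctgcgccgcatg

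The windows lie on GRCh38, CLSPN at chr1:35769960-35769999 (- strand), GINS1 at chr20:25407662-25407701 (+ strand), CDC6 at chr17:40287870-40287909 (+ strand), DTL at chr1:212035724-212035763 (+ strand), POLE2 at chr14:49688196-49688235 (- strand), GINS2 at chr16:85688962-85689001 (- strand), POLA1 at chrX:24693765-24693804 (+ strand), POLE at chr12:132687337-132687376 (- strand) and POLE4 at chr2:74958596-74958635 (+ strand). The word began 5 bases before the start site in CLSPN and POLE2, 8 bases before it in DTL, 31 bases before it in GINS2 and 137 bases before it in POLA1, and began at base 8 after the start in CDC6 and base 6 in GINS1. In POLE and POLE4 it began 18 and 31 bases before the start. These distances are counted from the RefSeq start, which can differ from the gene positions in the table of counts, as for GINS1 and GINS2. For 39 of the 45 members, 30 bases just after that start lie in a GENCODE 29 transcript of the gene. The 16 members with a word had a median log2 fold change of −0.85, of which 15 fell and 1 rose. The 29 members with a promoter entry but no word had a median of −0.61, with 22 lower and 2 higher. Over the genes tested that had a promoter entry, the 576 with an E2F word had a median log2 fold change of −0.068. Of these, 6.42% were called lower, beside a median of −0.0044 and 3.81% for the 10917 without. The members were not taken out of these counts. The 576 include the 16 members with a word, of which 7 were called lower, so the contrast partly restates the members. These matches describe letters in a fixed window and say nothing of binding. Whole promoters are given for CLSPN and CDC6, the fork and licensing genes with the smallest adjusted p in their roles, with the same capitals.
CLSPN: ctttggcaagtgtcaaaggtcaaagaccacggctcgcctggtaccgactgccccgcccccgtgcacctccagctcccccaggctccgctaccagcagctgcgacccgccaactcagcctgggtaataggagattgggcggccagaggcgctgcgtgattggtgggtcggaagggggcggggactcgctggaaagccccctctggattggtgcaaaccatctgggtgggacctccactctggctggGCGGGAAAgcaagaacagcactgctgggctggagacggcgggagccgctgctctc
CDC6: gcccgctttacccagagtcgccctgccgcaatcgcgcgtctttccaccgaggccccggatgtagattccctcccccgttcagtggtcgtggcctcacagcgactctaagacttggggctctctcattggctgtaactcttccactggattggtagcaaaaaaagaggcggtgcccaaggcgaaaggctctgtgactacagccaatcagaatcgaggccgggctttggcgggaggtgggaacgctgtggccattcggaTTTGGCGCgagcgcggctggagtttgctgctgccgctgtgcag
They span chr1:35769929-35770228 (− strand) and chr17:40287629-40287928 (+ strand).

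Within the origin recognition complex, which binds DNA at origins, 4 of the 6 subunits fell and 2 did not pass the test. ORC1, the largest subunit and the one whose protein rises and falls with the cell cycle, was at 8.35, 9.85 and 9.37 CPM with siCtrl against 4.15, 4.01 and 4.14 CPM with siBAP18. All 3 siBAP18 libraries lay below all siCtrl libraries, at 44.6% of the siCtrl mean (log2 fold change −1.16, standard error 0.109, edgeR adjusted p = 2.35e-09). ORC6, which helps recruit the MCM loading machinery, was at 16.6, 19.6 and 19.6 CPM with siCtrl against 10.3, 11.0 and 9.37 CPM with siBAP18, again without overlap (log2 fold change −0.86, standard error 0.0903, edgeR adjusted p = 1.61e-08). The core subunits ORC2 and ORC3 fell less, by 0.69 and 0.76 on the log2 scale (edgeR adjusted p = 1.78e-08 and 2.27e-05). ORC4 was at 14.1, 14.0 and 13.0 CPM with siCtrl against 13.5, 13.0 and 10.6 CPM with siBAP18, and its groups overlapped (log2 fold change −0.14, standard error 0.0929, edgeR adjusted p = 0.211). ORC5 was at 10.5 ± 0.893 CPM in siCtrl and 9.42 ± 0.224 CPM in siBAP18 (SD, n = 3 per group), without overlap, and had a log2 fold change of −0.16 (SE 0.0932, edgeR adjusted p = 0.149).

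All 3 licensing genes fell. CDC6, the ATPase that joins ORC to load MCM, had the largest change of them, from 62.9, 68.0 and 67.7 CPM with siCtrl to 25.3, 28.9 and 26.0 CPM with siBAP18. The groups were far apart, with siBAP18 at 40.4% of the siCtrl mean (log2 fold change −1.31, standard error 0.0727, edgeR adjusted p = 1.79e-13). CDT1, the MCM loading partner, was at 17.5 ± 1.33 CPM in siCtrl and 9.98 ± 1.93 CPM in siBAP18 (SD, n = 3 per group), which gave a log2 fold change of −0.82 (SE 0.106, edgeR adjusted p = 4.57e-07). GMNN, which encodes its inhibitor geminin, was at 24.4 ± 1.04 CPM in siCtrl and 14.2 ± 0.688 CPM in siBAP18 (SD, n = 3 per group), which gave a log2 fold change of −0.78 (SE 0.0774, edgeR adjusted p = 5.76e-09). The log2 ratio of CDT1 to GMNN in CPM was −0.64, −0.45 and −0.32 with siCtrl against −0.48, −0.83 and −0.19 with siBAP18, so the groups overlapped and the siBAP18 libraries were spread more widely (mean change −0.029).

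The 7 genes that turn loaded MCM rings into a moving helicase all fell, and 4 of them were called. GINS1, a subunit of the 4-part GINS ring, was at 33.3, 33.0 and 32.8 CPM with siCtrl against 8.62, 10.4 and 8.66 CPM with siBAP18. The siCtrl values were nearly equal and every siBAP18 value was far below them, at 27.9% of their mean (log2 fold change −1.84, standard error 0.0833, edgeR adjusted p = 3.56e-15). GINS2 fell to 48.3% of the siCtrl mean (log2 fold change −1.05, standard error 0.121, edgeR adjusted p = 7.60e-08). The remaining GINS genes changed less, at −0.61 (SE 0.102, edgeR adjusted p = 1.90e-05) for GINS4 and −0.38 (SE 0.0967, edgeR adjusted p = 0.00177) for GINS3. CDC45, the helicase cofactor, was at 35.4, 33.6 and 36.0 CPM with siCtrl against 17.3, 15.2 and 18.5 CPM with siBAP18, with no overlap (log2 fold change −1.04, standard error 0.0788, edgeR adjusted p = 4.96e-11). The kinase gene CDC7 had few reads, at 3.27, 3.23 and 3.81 CPM with siCtrl against 1.67, 1.51 and 1.13 CPM with siBAP18, and siBAP18 replicate 3 was the lowest (log2 fold change −1.24, standard error 0.171, edgeR adjusted p = 1.32e-06). Its activator DBF4 was at 13.1 ± 0.368 CPM in siCtrl and 7.55 ± 0.558 CPM in siBAP18 (SD, n = 3 per group), with a log2 fold change of −0.79 (SE 0.0919, edgeR adjusted p = 8.13e-08). The call of GINS2 was lost without siBAP18 replicate 1 (log2 fold change −0.96) and that of CDC45 without siBAP18 replicate 2 (−0.97).

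GINS1 and CDC7 were the only members of 51 whose 3′ UTR in GENCODE 29 holds the word ACTCAAC, which matches bases 2 to 8 of the guide strand of siBAP18#3, 1 of the study's 3 siRNAs against BAP18. The sites are shown because both genes were called, with the word in capitals.
GINS1: caggcttcACTCAACtcatggac
CDC7: ttggggaaACTCAACctggtgct
They lie at chr20:25446011-25446033 and chr1:91524841-91524863 of GRCh38, both on the + strand. The word is in a 3′ UTR of 2 of 51 members and of 7.29% of the 19132 genes with an annotated 3′ UTR. The part of these sites in the fall of GINS1 and CDC7 was not tested. The median log2 fold change was −1.54 for these 2 members and −0.70 for the other 49. For the other siRNAs of the study, the matching words were searched after these results were seen. AATCACA, for siBAP18#1, is in a 3′ UTR of 5 members (ORC2, CDC6, GINS1, GINS4 and RFC3, of which CDC6 and GINS1 were called) and of 14.1% of those genes. AAGATTC, for siBAP18#2, is in a 3′ UTR of 4 members (RFC1, RFC3, RPA1 and DNA2, of which DNA2 was called) and of 11.2% of those genes. The median log2 fold change was −0.84 for the 5 members with AATCACA and −0.71 for the other 46. For AAGATTC it was −0.64 for the 4 members and −0.71 for the other 47.

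All 4 genes of the polymerase alpha and primase complex fell, with a median log2 fold change of −0.87. POLA1, the catalytic polymerase subunit, was at 22.7, 24.1 and 23.3 CPM with siCtrl against 10.4, 12.0 and 10.6 CPM with siBAP18, with every siBAP18 library below every siCtrl library (log2 fold change −1.08, standard error 0.0820, edgeR adjusted p = 5.03e-11). PRIM1, the catalytic primase subunit, was at 6.47, 6.49 and 6.59 CPM with siCtrl against 3.27, 3.87 and 2.22 CPM with siBAP18. The siCtrl libraries were close together while siBAP18 replicate 3 was lower than the other two, and without it the log2 fold change was −0.86, short of the call, beside −1.04 with all libraries (SE 0.144, edgeR adjusted p = 1.38e-06). The accessory subunits fell as well, POLA2 by 0.70 and PRIM2 by 0.70 on the log2 scale (edgeR adjusted p = 6.56e-06 and 4.66e-04), and neither was called.

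In DNA polymerase delta 2 subunits fell, 1 rose and 1 did not pass. POLD3, a subunit that binds PCNA, was at 27.7, 27.4 and 28.5 CPM with siCtrl against 17.1, 18.1 and 15.7 CPM with siBAP18, without overlap (log2 fold change −0.71, standard error 0.0759, edgeR adjusted p = 1.99e-08). POLD1, which holds the catalytic site, was at 51.2 ± 3.76 CPM in siCtrl and 34.8 ± 3.77 CPM in siBAP18 (SD, n = 3 per group), which gave a log2 fold change of −0.56 (SE 0.0792, edgeR adjusted p = 2.00e-06). POLD2, the subunit that links the others, was at 55.8, 51.9 and 53.8 CPM with siCtrl against 54.5, 48.8 and 59.6 CPM with siBAP18, and the siBAP18 libraries lay on both sides of the siCtrl libraries (log2 fold change 0.011, standard error 0.0743, edgeR adjusted p = 0.912). Its sign turned in 3 of 16 alternatives. POLD4, the smallest subunit, was at 50.1, 47.7 and 48.7 CPM with siCtrl against 56.9, 51.7 and 68.8 CPM with siBAP18. Every siBAP18 library lay above every siCtrl library, with replicate 3 the highest (log2 fold change 0.27, standard error 0.0821, edgeR adjusted p = 0.00711). POLD4 shares 650 of its 3049 exon bases with AP003419.11 on the same strand, which had a log2 fold change of 0.33 (edgeR adjusted p = 0.00233), so reads of the pair are uncertain.

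In DNA polymerase epsilon, too, 2 subunits fell, 1 rose and 1 did not pass. POLE2, the second subunit, had few reads, at 2.12, 1.87 and 1.60 CPM with siCtrl against 0.974, 0.788 and 1.01 CPM with siBAP18, and its groups did not overlap (log2 fold change −1.02, standard error 0.215, edgeR adjusted p = 2.86e-04). It was the member nearest to the threshold of the call, and the call was lost without siCtrl replicate 1 (log2 fold change −0.92) and without siBAP18 replicate 2 (−0.91). POLE, the catalytic subunit, was at 59.4, 63.1 and 59.6 CPM with siCtrl against 50.2, 49.6 and 55.7 CPM with siBAP18, a small shift without overlap (log2 fold change −0.23, standard error 0.0693, edgeR adjusted p = 0.00787), which did not pass without siCtrl replicate 2 (edgeR adjusted p = 0.0559) or without siBAP18 replicate 1 (0.0533). POLE3 and POLE4 encode the histone-fold subunits, and POLE3 also belongs to the CHRAC chromatin remodeler. POLE3 was at 295, 297 and 303 CPM with siCtrl against 299, 309 and 338 CPM with siBAP18, with overlapping groups (log2 fold change 0.079, standard error 0.0669, edgeR adjusted p = 0.345). POLE4 was at 18.9, 17.4 and 20.1 CPM with siCtrl against 21.8, 20.2 and 24.3 CPM with siBAP18. The siBAP18 libraries lay just above the siCtrl libraries (log2 fold change 0.23, standard error 0.0831, edgeR adjusted p = 0.0231), and this rise did not pass in 4 of the 6 fits that left out a library, those without siCtrl replicate 1 (edgeR adjusted p = 0.0729), siCtrl replicate 2 (0.154), siBAP18 replicate 1 (0.0546) and siBAP18 replicate 3 (0.0745).

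**Figure D2:**
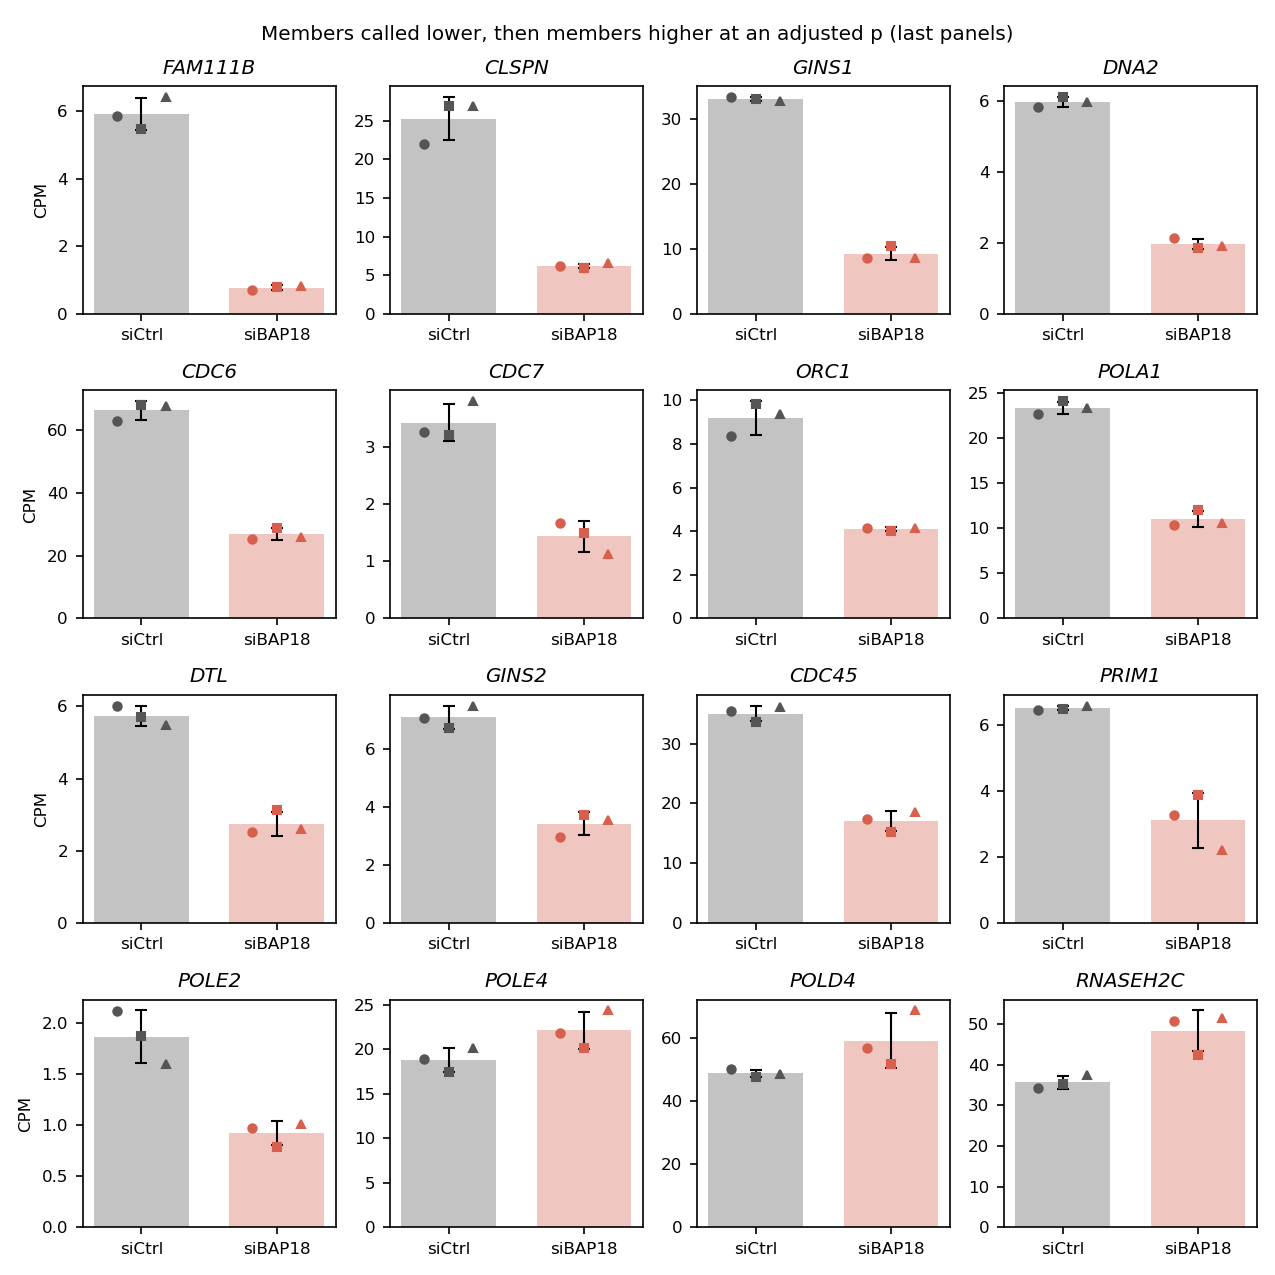
Expression in CPM (vertical axes start at 0) is given for the 13 members called lower and, in the last 3 panels, for the 3 members that were higher. Bars are means over 3 libraries, error bars the SD, and circles, squares and triangles replicates 1, 2 and 3; in each panel the siBAP18 points lie wholly on one side of the siCtrl points.

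The clamp and all 5 subunits of its loader fell, although none was called. PCNA was the second most abundant member per length and was at 107, 105 and 103 CPM with siCtrl against 60.3, 55.8 and 57.5 CPM with siBAP18. Its 2 groups were compact and far apart, with siBAP18 at 55.1% of siCtrl (log2 fold change −0.86, standard error 0.0660, edgeR adjusted p = 6.49e-11). RFC3, RFC4 and RFC5, small subunits of the loader, had log2 fold changes of −0.84, −0.79 and −0.61 (edgeR adjusted p = 9.67e-07, 3.17e-08 and 8.01e-06). RFC1, the large subunit, was at 29.1 ± 1.25 CPM in siCtrl and 21.6 ± 0.134 CPM in siBAP18 (SD, n = 3 per group), which gave a log2 fold change of −0.43 (SE 0.0716, edgeR adjusted p = 1.91e-05). RFC2 had the smallest change of the loader, at 39.8 ± 1.47 CPM in siCtrl and 31.8 ± 1.83 CPM in siBAP18 (SD, n = 3 per group), which gave a log2 fold change of −0.32 (SE 0.0710, edgeR adjusted p = 4.56e-04).

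The 3 subunits of replication protein A, which also serves DNA repair, had log2 fold changes between −0.23 and −0.17. RPA1, the large DNA-binding subunit, was at 79.4, 79.6 and 76.8 CPM with siCtrl against 69.4, 69.1 and 61.9 CPM with siBAP18, and the groups did not overlap (log2 fold change −0.23, standard error 0.0680, edgeR adjusted p = 0.00566). RPA2 was at 27.5 ± 1.25 CPM in siCtrl and 24.4 ± 0.793 CPM in siBAP18 (SD, n = 3 per group). Its log2 fold change of −0.17 had an edgeR adjusted p of 0.0516 (standard error 0.0723), and of 0.0356 with the replicate number as a block and 0.0365 without siBAP18 replicate 3. RPA3 was at 35.2, 32.2 and 33.5 CPM with siCtrl against 27.8, 26.8 and 32.6 CPM with siBAP18, where siBAP18 replicate 3 lay within the siCtrl range (log2 fold change −0.21, standard error 0.0782, edgeR adjusted p = 0.0261), and it did not pass in 4 of the 6 fits that left out a library. Those were the fits without siCtrl replicate 1 or 3 or siBAP18 replicate 1 or 2 (edgeR adjusted p from 0.0667 to 0.125).

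Of the 6 genes that finish Okazaki fragments or remove RNA from DNA, 5 fell and 1 rose. DNA2, a nuclease and helicase that trims long flaps, was at 5.85, 6.13 and 5.97 CPM with siCtrl against 2.13, 1.87 and 1.92 CPM with siBAP18. The siBAP18 libraries were close to each other, at 33.0% of the siCtrl mean (log2 fold change −1.60, standard error 0.133, edgeR adjusted p = 2.77e-10). FEN1, the main flap nuclease, was at 65.2, 67.6 and 68.4 CPM with siCtrl against 41.6, 39.4 and 38.7 CPM with siBAP18, with no overlap (log2 fold change −0.75, standard error 0.0672, edgeR adjusted p = 1.10e-09). LIG1, the ligase that seals the fragments, was at 150.4 ± 3.81 CPM in siCtrl and 91.9 ± 8.43 CPM in siBAP18 (SD, n = 3 per group), which gave a log2 fold change of −0.71 (SE 0.0710, edgeR adjusted p = 7.01e-09). RNase H2, which removes RNA and single ribonucleotides from DNA, has 3 subunits that differed in direction. The catalytic RNASEH2A was at 27.3 ± 0.864 CPM in siCtrl and 22.2 ± 1.15 CPM in siBAP18 (SD, n = 3 per group), which gave a log2 fold change of −0.30 (SE 0.0732, edgeR adjusted p = 0.00123). RNASEH2B was at 8.42, 10.5 and 9.28 CPM with siCtrl against 7.75, 8.56 and 7.20 CPM with siBAP18, with overlapping groups (log2 fold change −0.26, standard error 0.105, edgeR adjusted p = 0.0434), and it passed in only 2 of the 6 fits that left out a library, those without siCtrl replicate 1 and without siBAP18 replicate 2. RNASEH2C was at 34.2, 35.3 and 37.4 CPM with siCtrl against 50.8, 42.5 and 51.6 CPM with siBAP18. All siBAP18 libraries lay above all siCtrl libraries, at 136% of the siCtrl mean (log2 fold change 0.44, standard error 0.0772, edgeR adjusted p = 3.71e-05), the largest rise among the members. KAT5 on the opposite strand covers 1115 of the 3697 exon bases of RNASEH2C and had a log2 fold change of 0.74 (edgeR adjusted p = 8.51e-09), and since use of strand in counting is not given in the sources used here, reads of the 2 genes cannot be told apart in the shared part.

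Of the 3 fork protection genes, 2 fell, by very different amounts, and 1 did not pass. CLSPN encodes claspin, which links the stalled fork to the kinase CHK1 and sets fork speed. It was at 22.0, 26.9 and 26.9 CPM with siCtrl against 6.16, 5.96 and 6.54 CPM with siBAP18, so that siBAP18 cells held 24.6% of the siCtrl mean and no library came near the other group (log2 fold change −2.03, standard error 0.0938, edgeR adjusted p = 5.31e-15). Its promoter, printed in full above, holds an E2F word 5 bases before the start site. RP11-435D7.3, which overlaps 280 of the 5411 exon bases of CLSPN on the opposite strand, had a log2 fold change of −1.97 (edgeR adjusted p = 1.83e-11). TIMELESS, which binds CLSPN and TIPIN at the fork, was at 222, 224 and 226 CPM with siCtrl against 172, 168 and 179 CPM with siBAP18, a fall to 77.1% without overlap (log2 fold change −0.37, standard error 0.0641, edgeR adjusted p = 2.55e-05). TIPIN, the partner of TIMELESS, was at 13.8, 13.8 and 13.4 CPM with siCtrl against 13.0, 12.9 and 11.3 CPM with siBAP18. The siBAP18 libraries lay just below the siCtrl libraries, but the difference did not pass (log2 fold change −0.14, standard error 0.0852, edgeR adjusted p = 0.192).

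The remaining members act behind the fork or limit new licensing. DTL, the substrate receptor through which the CUL4 ubiquitin ligase degrades CDT1 on PCNA, was at 6.02, 5.72 and 5.48 CPM with siCtrl against 2.52, 3.13 and 2.59 CPM with siBAP18, without overlap (log2 fold change −1.06, standard error 0.131, edgeR adjusted p = 2.31e-07), and its call was lost without siBAP18 replicate 1 (log2 fold change −0.99). The chromatin assembly factor subunits CHAF1A and CHAF1B, which place histones on new DNA, fell by 0.63 and 0.78 on the log2 scale (edgeR adjusted p = 2.32e-07 and 8.64e-08). FAM111A and FAM111B are neighbouring genes on chromosome 11, at chr11:59142748-59155039 (+ strand) and chr11:59107185-59127410 (+ strand), and encode related proteases, of which FAM111A acts on proteins that block forks. FAM111B was at 5.87, 5.46 and 6.42 CPM with siCtrl against 0.698, 0.788 and 0.839 CPM with siBAP18, and siBAP18 cells held 13.1% of the siCtrl mean, the largest fall of the 51 members (log2 fold change −2.94, standard error 0.162, edgeR adjusted p = 1.49e-13). These levels rest on 254 to 312 reads a library with siCtrl and 34 to 46 with siBAP18. FAM111A was at 25.2, 24.1 and 24.9 CPM with siCtrl against 12.8, 14.2 and 10.7 CPM with siBAP18, which gave a log2 fold change of −0.97 (SE 0.0884, edgeR adjusted p = 1.54e-09). Of the fits that left out a library, only the one without siBAP18 replicate 2 carried it past the fold threshold (−1.06). Of the 13 called members, 8 kept the call in all 6 fits that each left out a library, namely ORC1, CDC6, GINS1, CDC7, POLA1, DNA2, CLSPN and FAM111B. Of these, ORC1, CDC7, POLA1 and DNA2 lost the call with limma on log2(RPKM + 1), a scale that shrinks changes of genes with low RPKM, at log2 changes of −0.76, −0.48, −0.77 and −0.66, and CDC6, GINS1, CLSPN and FAM111B kept it.

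Members with the same or related roles, most of them subunits of 1 complex, were also compared within each library, as the log2 ratio of 2 members after adding 0.5 CPM, for 15 pairs. With 3 libraries against 3 the exact two-sided permutation test cannot give a p under 0.1, and a p of 0.1 became 0.15 after adjustment over the 15 pairs, so no ratio could pass. In 9 pairs the siBAP18 ratios all lay below the siCtrl ratios, in 1 pair all above, and in 5 pairs the groups overlapped. Each ratio is built from the CPM of 2 members described above, so these counts largely restate the changes of those members. The pairs were chosen with earlier results of these data known, and pairs of other genes were not compared. CLSPN against TIPIN showed the widest change, with log2 ratios of 0.65, 0.94 and 0.98 with siCtrl against −1.03, −1.05 and −0.75 with siBAP18. The siBAP18 libraries lay far below the siCtrl libraries (change −1.80). The ratio of FAM111B to FAM111A was −2.01, −2.04 and −1.88 with siCtrl against −3.48, −3.52 and −3.07 with siBAP18, a change of −1.38, or −0.63 with 2 CPM added. Within polymerase epsilon, POLE2 against POLE4 changed by −0.96 (−0.61 with 2 CPM added). Within polymerase delta, POLD3 against POLD2 changed by −0.71, and within RNase H2, RNASEH2A against RNASEH2C changed by −0.73. ORC6 against ORC4 changed by −0.68, GINS2 against GINS3 by −0.59, RFC3 against RFC2 by −0.47 and ORC1 against ORC2 by −0.38, each without overlap. The subunit ratio DBF4/CDC7 rose by 0.27, but with 2 CPM added the change was −0.000863. The pairs that overlapped were CDT1 with GMNN, POLA1 with POLA2, PRIM1 with PRIM2, RPA2 with RPA1, and CHAF1B with CHAF1A, with changes from −0.39 to 0.068.

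**Figure D3:**
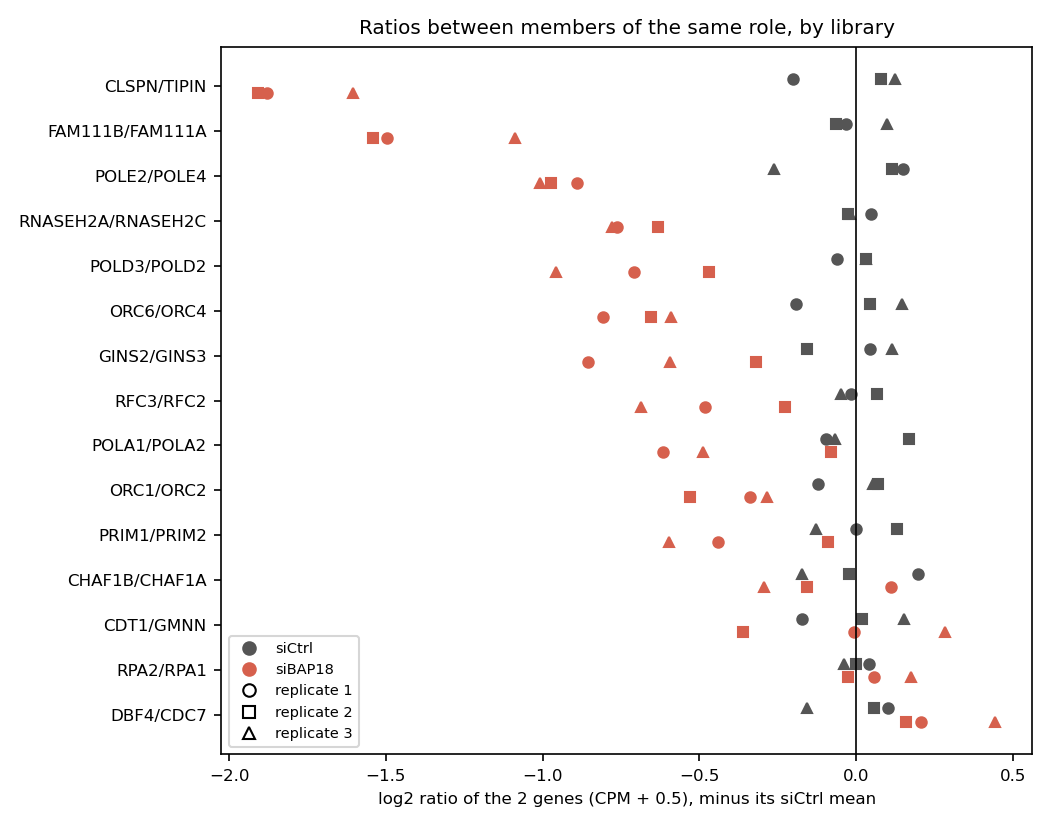
For 15 pairs of members, the log2 ratio of the 2 genes in each library (CPM + 0.5) is plotted after subtracting the siCtrl mean of the pair; grey marks are siCtrl and red marks siBAP18 libraries, with shapes for replicates. The red marks lie wholly to the left of the grey ones in 9 pairs, furthest for CLSPN/TIPIN at −1.80, wholly to the right for DBF4/CDC7, and overlap in 5.

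Levels between genes were compared as RPKM, counts scaled to gene length and library total, in siCtrl cells. They spanned from 0.630 ± 0.0873 for POLE2 to 114 ± 1.79 for POLE3 (SD, n = 3 each). After POLE3 the most abundant members were PCNA at 71.3 ± 1.42 RPKM, TIMELESS at 38.4 ± 0.589, FEN1 at 27.0 ± 0.816 and LIG1 at 22.8 ± 0.518 (SD, n = 3 each), and the spread of none of them reached the next. PRIM2 at 0.780 ± 0.0792 and CDC7 at 0.963 ± 0.0858 RPKM were the lowest after POLE2. In siBAP18 cells POLE3 stood at 121 ± 4.92 RPKM and PCNA at 39.4 ± 1.85. The most abundant members had the smallest median change. The 17 least abundant members (up to 2.86 RPKM) had a median log2 fold change of −0.79 with 7 called lower, the middle 17 a median of −0.78 with 4 called, and the 17 most abundant (from 9.84 RPKM) a median of −0.37 with 2 called, CDC6 and CDC45. Over the 51 members, log2 RPKM in siCtrl and log2 fold change had a Pearson r of 0.35 and a Spearman rho of 0.37, given as a description, since the genes share the same libraries and the siCtrl level enters both values. For gene length in place of level, r was −0.053 and rho −0.055 over the same 51 members.

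**Figure D4:**
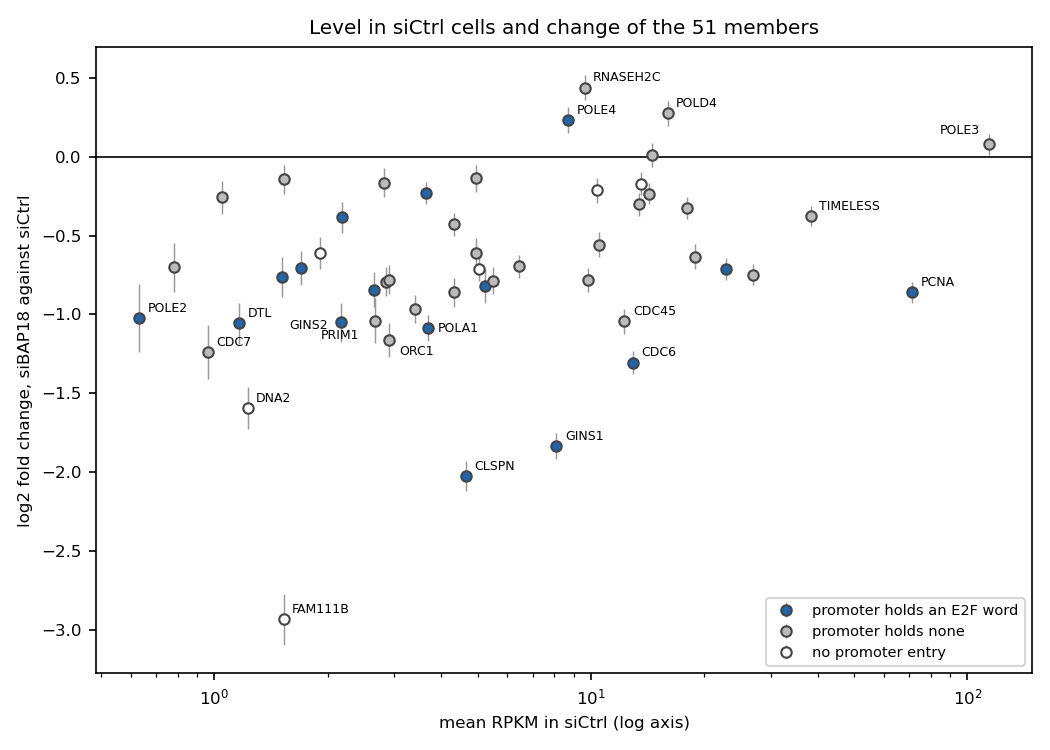
The mean RPKM in siCtrl cells (horizontal, log axis) is set against the log2 fold change (vertical, bars show the standard error) for the 51 members. Blue points are the 16 members with an E2F word in the promoter, grey points the 29 without and open points the 6 with no promoter entry; POLE3, at 114 RPKM, lies near 0 while CLSPN and FAM111B lie lowest.

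Other genes of the same process were drawn from a fixed list of 56, of which 54 were matched in the table and tested. They hold the MCM helicase, other origin firing factors, clamp cofactors, topoisomerases, fork remodelers, translesion polymerases and histone chaperones. By the same edgeR test 38 fell (70.4%) and 5 rose (9.26%), beside 25.1% and 24.5% of all genes. Of the 54, 12 were called lower (22.2%) and 0 higher, beside 3.74% and 4.72% of all genes. The median log2 fold change of the 54 was −0.47. The 7 MCM genes on this list, MCM2 to MCM7 and MCM10, were all lower, with a median of −0.995. The smallest adjusted p belonged to UHRF1 (log2 fold change −1.64), which guides maintenance methylation at the fork, TOP2A (−1.31), EXO1 (−1.73) and WDHD1 (−1.65), which ties polymerase alpha to the helicase. The largest rise was that of the fork remodeler SMARCAL1, with a log2 fold change of 0.70 (SE 0.0987, edgeR adjusted p = 1.75e-06). It was followed by MAD2L2 at 0.51 (SE 0.0949, edgeR adjusted p = 8.14e-05) and POLH at 0.32 (SE 0.0906, edgeR adjusted p = 0.00453), both of translesion synthesis, and by the topoisomerase TOP1 at 0.17 (SE 0.0669, edgeR adjusted p = 0.0333). Of the translesion polymerase genes, 4 of 7 were lower (57.1%, beside 25.1% of all genes) and none was called. The 2 that were higher (28.6%) are a share near the 24.5% of all genes.

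Reads of some members could be shared with other genes. Exons of 23 members overlap another gene in the table, by 0.214% to 30.2% of the member's exon bases, and 28 members overlap none. Among the called members, CLSPN, GINS2 and PRIM1 are in the first group. PRIM1 shares 33 exon bases on the same strand with NACA, which had on average 51481 counts per library against 241 for PRIM1. Pseudogenes named after PCNA, FEN1, RPA2, RFC3, RFC5, DBF4, POLD2 and RNASEH2C are in GENCODE 29, and reads of these members could have been assigned to the copies or left out.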

How the data were processed

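Poly(A) RNA of 3 siCtrl and 3 siBAP18 A549 cultures, labelled as biological replicates, was sequenced with a strand-specific dUTP kit. The authors deposited a table of raw read counts per gene, with positions and gene lengths, and a table of RPKM values, which equal the counts scaled to listed gene length and column total. The aligner, the counter and its strand setting are not given in the sources used here; 47 of the 51 members have the positions of GENCODE 29 on GRCh38. Libraries held 42094524 to 56548620 counts.

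Genes were kept by the filterByExpr function of edgeR, counts were scaled by TMM, and siBAP18 was compared with siCtrl by the quasi-likelihood test of edgeR 4.0.16 in R 4.3.3, with p adjusted by Benjamini-Hochberg over 20776 genes. Genes were called at an adjusted p under 0.05 and a log2 fold change beyond 1 in size. On simulated counts for those genes, 200 of 200 changed genes were recovered and 2 others were called. The changed genes were drawn above a count limit, with changes well past the fold threshold and the same replicate spread for every gene. This check therefore does not cover calls near the threshold or at low counts. Alternatives used limma 3.58.1, DESeq2 1.42.0, other scalings and filters, and fits that each left out a library. Pair ratios (CPM + 0.5) were tested by exact two-sided permutation. Promoter searches and figures used Python 3.11.15 and matplotlib 3.10.9.

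Every called or higher member was named, with the member of smallest adjusted p and of smallest change in each role, the pair members, and the 4 other replication genes with the smallest adjusted p and the 4 with the largest rises; further members were named after their values were seen. Members, lists and tests were chosen with earlier results of these data known. Replicates of a group differed by more than sampling noise, and more so with siBAP18. The chi-square per degree of freedom was 3.94 to 4.56 for pairs of siCtrl libraries and 10.1 to 23.3 for pairs of siBAP18 libraries. It was highest between siBAP18 replicates 2 and 3. Same-numbered replicates did not deviate together (r from −0.017 to 0.051 over 20776 genes), so the numbers were not used as pairs.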

Additional observations from a re-analysis of the deposited data

How the results depend on the processing

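The median log2 fold change of members stayed between −0.75 and −0.69 under other scalings, filters, DESeq2 and limma on log2(RPKM + 0.1). With limma on log2(RPKM + 1) it was −0.494, with 4 members called lower (CDC6, GINS1, CLSPN and FAM111B), and without a filter −0.492, when 4 were called lower and 1 rose; a pseudocount of 1 shrinks changes of members with low RPKM. By the other alternatives 10 to 13 members were called lower, 39 to 43 fell and 2 to 3 rose. POLE2, with a mean RPKM under the minimum of 0.5, was not tested in the limma fits that used a filter. Its call is therefore missing from those counts without having been lost in a test. Leaving out a library in turn gave medians from −0.763 to −0.692. Of the other replication genes, 3 rose without the filter on low counts and 3 to 5 when a library was left out. With the replicate block, 43 members fell, 13 were called and the median was −0.715; RPA2 then passed, and the numbers do not pair the samples (r under 0.1 for every number).

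POLD2, near 0, turned sign to −0.0042 without a filter and ranged from −0.058 to 0.084 when a library was left out. The subunit ratio DBF4/CDC7 turned to −0.000863 with 2 CPM added. RNASEH2B did not pass with DESeq2 (adjusted p = 0.121) or upper-quartile scaling (edgeR adjusted p = 0.0521), nor RPA3 with DESeq2 (adjusted p = 0.0608). Of 814 values of members under up to 16 alternatives each, 781 kept their direction and their side of an adjusted p of 0.05, 26 no longer passed it, 4 newly passed it and 3 turned sign. The call, which also needs a log2 fold change beyond 1, was lost 25 times and gained 1 time. Depth limits POLE2, CDC7 and FAM111B most, which had the fewest reads among those called, and 3 libraries a group limit every comparison.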
